A study of Mus musculus with 3 samples.

Results

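The 10 genes described here belong to the interleukin-1 receptor and NF-kappaB pathway: the receptor chains Il1r1 and Il1rap, the adaptor Myd88, the NF-kappaB subunit genes Nfkb1, Nfkb2 and Relb, the IkappaB family genes Nfkbia and Nfkbiz, and the TNF-inducible genes Tnfaip2 and Tnfaip3. They were taken as a named list of 10 among 24225 genes measured, and not by a threshold. The list was chosen with earlier results of these data known, so its counts beside those of all genes are a description. All 10 were matched through 20 RefSeq isoforms. Granulosa cells, the somatic cells that line the ovarian follicle, came from ovaries of wild type C57BL/6 females of postnatal day 21 to 28. All mice had received 4 IU of eCG, which drives follicle growth, and cells were obtained by follicle puncture before hCG (0 h) or 4 h and 12 h after 5 IU of hCG, the ovulatory stimulus. Each time is 1 library, with RNA isolated from 3 mice per time, so no test was possible and each difference below is one between 2 libraries. Levels are in FPKM (fragments per kilobase of transcript, scaled to the mapped fragments of the library) with the deposited lower and upper bounds summed over the isoforms of a gene. These bounds describe the estimate within 1 library and not the spread between mice.

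Interleukin-1 binds the receptor chain IL1R1, which then pairs with the accessory chain IL1RAP. Their intracellular domains recruit MYD88, and IRAK kinases and TRAF6 pass the signal to the IkappaB kinase complex. That complex marks IkappaB-alpha, the product of Nfkbia, for degradation and so frees NF-kappaB dimers to enter the nucleus. Nfkb1 and Nfkb2 encode the precursors of p50 and p52, and RELB is the usual partner of p52 in the slower noncanonical branch. Nfkbia, Nfkbiz and Tnfaip3 are themselves classical NF-kappaB target genes: the first and the last restrain the pathway, and Nfkbiz encodes a nuclear IkappaB protein that modulates transcription of a subset of targets. In the rat, interleukin-1 beta promotes ovulation in the perfused ovary.

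RefSeq promoter windows of GRCm38.p6 (mm10 is the same assembly under its browser name) were found for 7 of the 10 genes, with 11 annotated starts between them. The 250 bases before 6 of these starts are shown. They were chosen because they precede the main start of the receptor gene Il1r1 or the start of the textbook NF-kappaB target Nfkbia. The others precede the starts of the Nfkb2 and Tnfaip3 isoforms whose levels at 4 h and 0 h are given below. Capitals mark matches to the NF-kappaB consensus on either strand, and each sequence runs 5′ to 3′ toward the start.
Il1r1, start of isoform NM_008362, chr1:40224830-40225079, plus strand: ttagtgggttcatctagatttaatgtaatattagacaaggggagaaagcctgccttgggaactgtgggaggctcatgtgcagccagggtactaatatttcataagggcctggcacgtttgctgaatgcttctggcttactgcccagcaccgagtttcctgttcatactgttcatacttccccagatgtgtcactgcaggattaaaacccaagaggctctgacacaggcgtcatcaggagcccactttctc
Nfkbia, chr12:55492648-55492897, minus strand: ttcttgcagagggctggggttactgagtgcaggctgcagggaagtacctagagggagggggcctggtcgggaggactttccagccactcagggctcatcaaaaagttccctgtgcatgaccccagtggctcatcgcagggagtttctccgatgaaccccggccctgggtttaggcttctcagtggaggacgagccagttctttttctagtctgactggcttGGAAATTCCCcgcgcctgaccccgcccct
Nfkb2, upstream start, chr19:46304487-46304736, plus strand: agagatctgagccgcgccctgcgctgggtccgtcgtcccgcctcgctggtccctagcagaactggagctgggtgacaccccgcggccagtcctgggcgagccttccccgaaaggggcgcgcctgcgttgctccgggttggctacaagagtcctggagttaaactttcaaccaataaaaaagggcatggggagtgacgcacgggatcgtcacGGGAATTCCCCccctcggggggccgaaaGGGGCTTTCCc
Nfkb2, downstream start, chr19:46305445-46305694, plus strand: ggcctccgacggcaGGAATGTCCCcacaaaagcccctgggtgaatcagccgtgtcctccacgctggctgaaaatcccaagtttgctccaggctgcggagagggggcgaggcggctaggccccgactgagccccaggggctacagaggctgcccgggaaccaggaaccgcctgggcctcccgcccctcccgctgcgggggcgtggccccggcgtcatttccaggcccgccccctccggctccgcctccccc
Tnfaip3, upstream start, chr10:19015411-19015660, minus strand: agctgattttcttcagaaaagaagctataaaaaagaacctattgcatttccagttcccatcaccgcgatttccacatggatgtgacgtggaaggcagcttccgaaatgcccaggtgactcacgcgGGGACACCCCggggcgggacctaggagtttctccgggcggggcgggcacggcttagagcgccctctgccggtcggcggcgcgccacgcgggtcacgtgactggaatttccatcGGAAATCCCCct
Tnfaip3, downstream start, chr10:19011964-19012213, minus strand: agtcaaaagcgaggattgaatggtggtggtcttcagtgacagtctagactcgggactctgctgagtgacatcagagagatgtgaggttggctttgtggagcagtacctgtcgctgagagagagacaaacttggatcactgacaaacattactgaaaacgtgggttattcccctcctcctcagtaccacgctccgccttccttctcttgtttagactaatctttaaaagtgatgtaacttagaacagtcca
The consensus was matched in 7 of the 11 windows and in 5 of the 7 genes, against 7.25% of 32851 windows of the same length and 8.23% of 27025 genes in the RefSeq table. The upstream start of Nfkb2 held 3 matches, of which 2 overlap by all but 1 base, and the upstream start of Tnfaip3 held 2. Of the windows not printed, those before the downstream start of Il1r1, the start of Tnfaip2 and a further downstream start of Nfkb2 held 1 match each. The last 2 of these starts lie 192 and 234 bases downstream of the annotated starts of the measured isoforms. Their matches fall inside the annotated first exons of those isoforms and are included in the counts of 7 windows and 5 genes. The window before the main start of Il1r1, that before the downstream start of Tnfaip3 and those of Il1rap and Myd88 held none. The AP-1-like pattern TGANTCA, in which N is any base, was found in 2 of the 11 windows, against 6.75% of all windows. It read TGACTCA at the upstream start of Tnfaip3 and TGAATCA at the downstream start of Nfkb2, and overlapped no consensus match there. The cyclic AMP response element TGACGTCA was found in none of the 11, against 1.55% of all windows. These matches are letters in a window and not measured binding.

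The estimated depth was 13400000, 11900000 and 11600000 fragments at 0, 4 and 12 h. At least 1 FPKM was recorded for 12449 to 12635 genes per library. Of the granulosa markers 7 of 7 were above 1 FPKM in each library, and the lowest level was 15.5 FPKM (Fshr at 4 h). Their summed level was 7980 FPKM at 0 h, 7539 at 4 h and 4376 at 12 h, of which Inha alone held 6986, 7163 and 3742. A gene is called higher or lower here where the fold of FPKM + 1 reached 2 and at least 1 FPKM was recorded in either library. Genes that meet this floor are called tested. This is a rule of size without a statistical test, and the pseudocount of 1 understates the change of low genes.

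At 4 h, 5 of the 10 genes were called higher than at 0 h and none lower, where 10.2% of 13240 genes tested were called higher and 7.03% lower. The 5 were Il1r1, Il1rap, Nfkb2, Nfkbiz and Tnfaip3, and the median log2 fold of the 10 genes was 1.01, against -0.01 for all genes tested. At 12 h, 4 of the 10 were called lower than at 4 h (Il1r1, Il1rap, Nfkbiz and Tnfaip3) and none higher, where 7.88% of 13242 genes were called lower and 4.83% higher. Between 12 h and 0 h none of the 9 genes tested (Tnfaip3 was under 1 FPKM in both) was called in either direction, where 3.16% of 13026 genes were called higher and 2.55% lower. Bounds lay apart at any fold for 7 genes higher at 4 h than at 0 h (all but Myd88, Nfkb2 and Tnfaip2) and none lower, where 21.0% of genes tested were higher and 16.3% lower by that measure. Between 12 h and 4 h they lay apart for 5 lower genes (Il1r1, Il1rap, Nfkb1, Nfkbia and Tnfaip3) and none higher, where 19.5% were lower and 13.2% higher, and between 12 h and 0 h for none, where 7.88% were higher and 8.18% lower. Both the 2-fold rule and bounds apart were met by 4 genes higher at 4 h than at 0 h, against 8.78% of genes tested, and by 3 lower at 12 h than at 4 h, against 6.75%. The 3 comparisons share libraries, so the difference at 4 h and the opposite one at 12 h both rest on the same 4 h library. With libraries brought to equal FPKM sums, which placed the median log2 fold of all genes between 4 h and 0 h at -0.29, 3 of the 10 were called higher at 4 h (Il1r1, Nfkbiz and Tnfaip3), where 7.6% of all genes tested were. Genes called higher made up 36.7% of all called genes on that scale and 59.3% on the deposited scale.

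**Figure D1:**
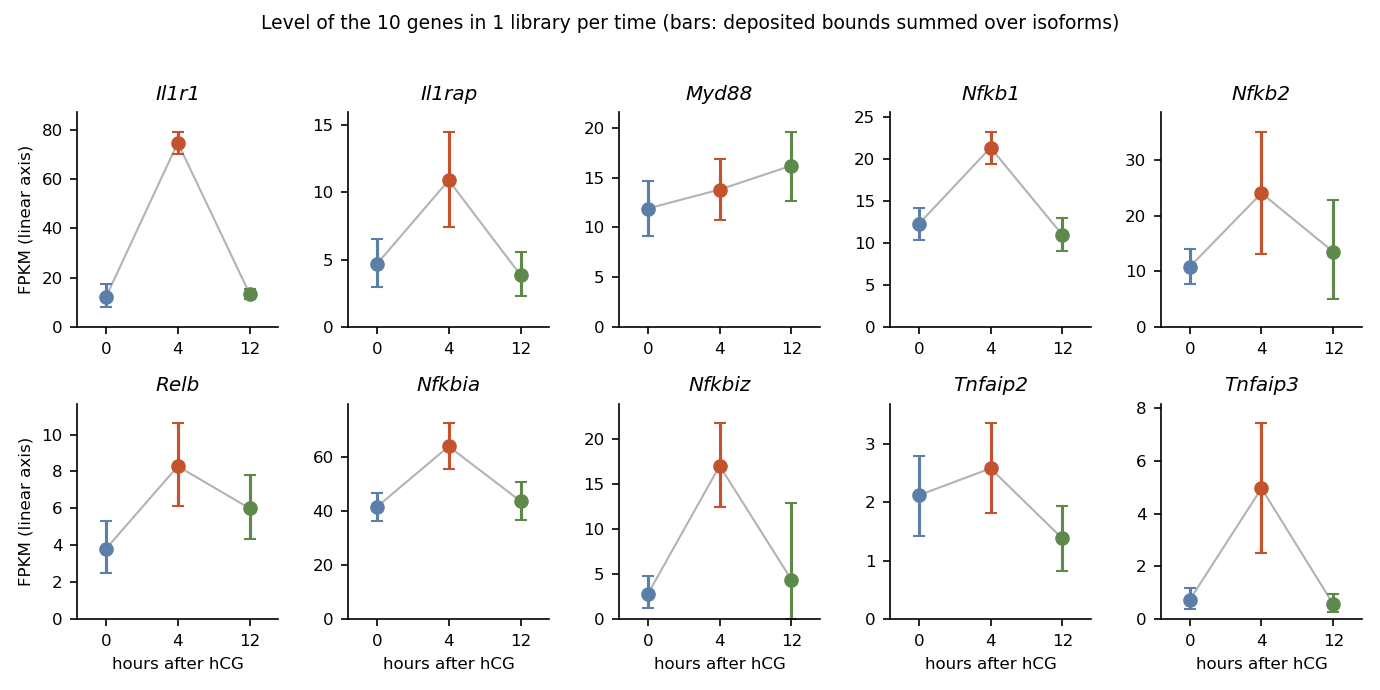
FPKM (linear axis from 0, its range set for each gene) of the 10 genes at 0, 4 and 12 h after hCG, 1 library per time; bars are the deposited bounds summed over isoforms. In 9 of the 10 panels the 4 h library is highest, by the most FPKM in Il1r1 (74.7 FPKM), and in Myd88 the 12 h library is highest (16.2 FPKM).

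Il1r1, the signalling receptor for interleukin-1 alpha and beta, lies on chromosome 1 at 40222480 to 40316201. Its level was 12.3 FPKM at 0 h (bounds 8.30 to 17.4), 74.7 at 4 h (70.2 to 79.2) and 13.6 at 12 h (11.6 to 15.6), or about 906, 4965 and 884 fragments. The 4 h library stood apart from both others, and the 0 h and 12 h bounds overlapped. The log2 fold was 2.51 between 4 h and 0 h, a value exceeded by 2.24% of genes tested, and -2.38 between 12 h and 4 h. At 4 h 1275 of 24225 genes were listed at a higher level than Il1r1, against 6567 at 0 h. Its isoform NM_008362 held 96.7% of the level at 4 h and 91.0% at 0 h. The isoform from a start 41506 bases downstream, NM_001123382, was at 2.49 FPKM at 4 h, against 1.11 at 0 h, with overlapping bounds of 1.63 to 3.36 and 0 to 3.38.

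Il1rap, the shared accessory chain of the receptors for interleukin-1, interleukin-33 and interleukin-36, lies on chromosome 16 at 26581509 to 26730128 and was at 4.69 FPKM at 0 h (2.99 to 6.55), 10.9 at 4 h (7.42 to 14.5) and 3.87 at 12 h (2.33 to 5.58). Its log2 fold between 4 h and 0 h was 1.06, just past the threshold, and 0.79 with libraries brought to equal FPKM sums. The level of Il1r1 was 2.62, 6.85 and 3.50 times that of Il1rap at 0, 4 and 12 h, which are ratios of FPKM within a library. Il1rap has 4 RefSeq isoforms, 2 of which were listed at 0 in each library. The isoform NM_008364, with 570 codons, held 83.1%, 79.5% and 80.4% of the level at 0, 4 and 12 h. The shorter NM_134103, with 360 codons, was at 2.24 FPKM at 4 h (0.6 to 3.88) and 0.794 at 0 h (0.087 to 1.5), and held 20.5% and 16.9% of the gene's level. A secreted form of the accessory chain that lacks the membrane anchor is known in the mouse, and the shares of the long and short isoforms differed by at most 3.6 points between libraries.

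Myd88, the adaptor through which this receptor and most Toll-like receptors signal, lies on chromosome 9 at 119335934 to 119340018 and was at 11.9 FPKM at 0 h (9.13 to 14.7), 13.8 at 4 h (10.7 to 16.9) and 16.2 at 12 h (12.7 to 19.6). All 3 bounds overlapped. The log2 fold was 0.19 between 4 h and 0 h and 0.41 between 12 h and 0 h, and the first became -0.09 with libraries brought to equal FPKM sums. The log2 fold of Myd88 between 4 h and 0 h was smaller than that of either receptor chain.

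**Figure D2:**
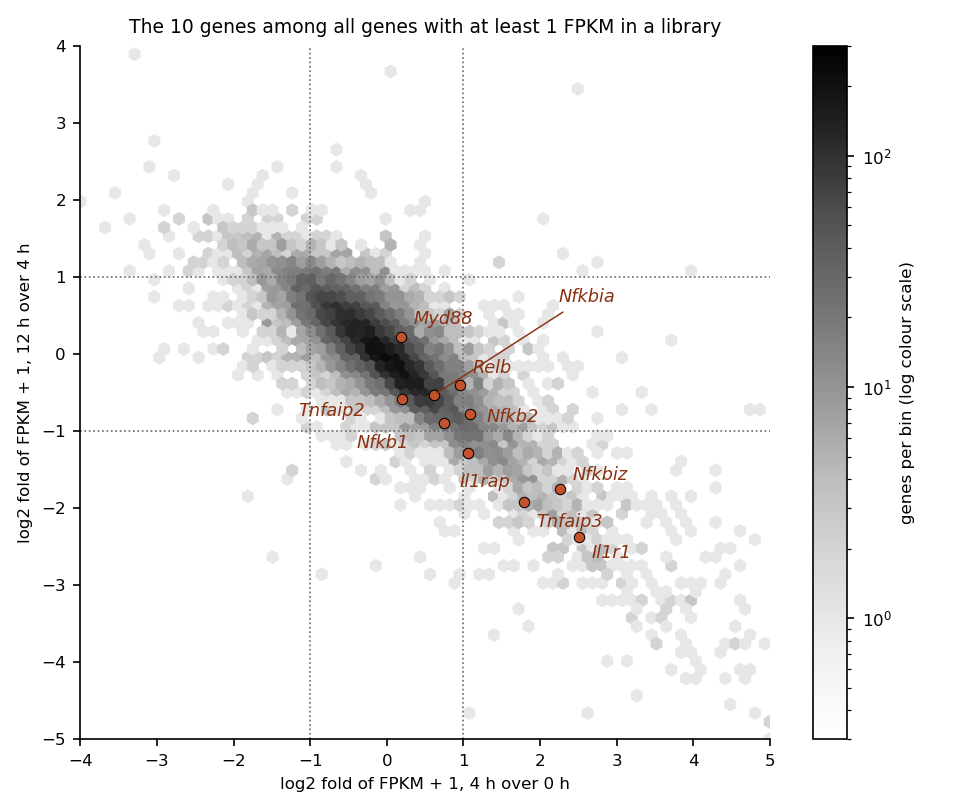
Log2 fold of FPKM + 1 between 4 h and 0 h (horizontal) and between 12 h and 4 h (vertical) for 13500 genes that reached 1 FPKM in a library, shown as grey bins on a log colour scale, with the 10 genes as orange points; dotted lines mark 2-fold and 158 genes lie outside the axes. The axes share the 4 h library, so the downward slope of the cloud is built in; Il1r1, Nfkbiz and Tnfaip3 lie farthest to the lower right of the 10.

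Of the subunit genes, Nfkb1 (p105 and p50; chromosome 3, 135584655 to 135691969) was at 12.3 FPKM at 0 h (10.4 to 14.2), 21.4 at 4 h (19.4 to 23.3) and 11 at 12 h (9.06 to 13). The 4 h bounds lay apart from both others, but the log2 folds of 0.75 between 4 h and 0 h and -0.90 between 12 h and 4 h did not reach the 2-fold rule. Relb (chromosome 7, 19606217 to 19629438) was at 3.81 FPKM at 0 h (2.52 to 5.29), 8.28 at 4 h (6.14 to 10.6) and 6.00 at 12 h (4.36 to 7.82). Its log2 fold of 0.95 between 4 h and 0 h lay just under the threshold and became 1.1 with a pseudocount of 0.1 FPKM. At 12 h the bounds of Relb overlapped those of both other libraries.

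Nfkb2 (p100 and p52), on chromosome 19 at 46300994 to 46312400, was at 10.8 FPKM at 0 h (7.67 to 14.0), 24.0 at 4 h (13.1 to 35.0) and 13.5 at 12 h (5.15 to 22.8). The gene was called higher at 4 h with a log2 fold of 1.09, but its bounds overlapped those at 0 h. The isoform from the upstream start, NM_001177369, was at 8.75 FPKM at 0 h (6.54 to 11), 4.29 at 4 h (2.82 to 5.76) and 9.13 at 12 h (4.31 to 13.9). The isoforms paired by annotation with a start 952 bases downstream were at 2.03, 19.7 and 4.41 FPKM in the same order, with bounds of 1.13 to 3.04, 10.2 to 29.2 and 0.831 to 8.90. Of these, NM_001177370 was listed at 0 at 0 h and at 15.4 and 2.2 FPKM at 4 and 12 h, and NM_019408 was at 2.03, 4.34 and 2.21 FPKM. Both carry the same start, exon count and length in the annotation paired with them. The RefSeq windows also hold a start 234 bases farther downstream, and which of these isoforms uses it was not resolved. At 4 h the downstream isoforms together were thus the higher ones and the upstream isoform the lower one, each with bounds apart from those at 0 h. The annotated length of 899 codons was the same.

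The share of the upstream start of Nfkb2 was 17.9% at 4 h and 81.2% at 0 h, a difference of -63.3 points, and 67.4% at 12 h. A share difference of at least 50 points between 4 h and 0 h was found in 7.02% of 2008 genes with several isoforms and at least 10 FPKM in both libraries; of the 2 genes of the list that this rule covers, Il1r1 and Nfkb2, Nfkb2 was past it and Il1r1 was not. The upstream first exon has 77 bases, on which its levels correspond to about 9.0, 3.9 and 8.2 fragments at 0, 4 and 12 h. The downstream first exon has 329 bases, on which the levels correspond to about 8.9, 77 and 17 fragments. The upstream level thus rests on few fragments in each library, and the downstream level at 0 h does too. The span of Nfkb2 also overlaps that of the protein-coding gene Psd, which was at 28.4, 3.04 and 7.74 FPKM at 0, 4 and 12 h. The sources used here do not give strandedness, and reads in the overlap cannot be told apart.

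Nfkbia, the main cytoplasmic inhibitor of NF-kappaB (chromosome 12, 55489409 to 55492647), was the most abundant of the 10 genes at 0 h and 12 h, at 41.6 FPKM (36.3 to 46.9) and 43.7 (36.7 to 50.8). At 4 h it was at 64.0 FPKM (55.6 to 72.5), with bounds apart from both, and stood below Il1r1. The log2 fold of 0.61 between 4 h and 0 h did not reach the rule and became 0.31 with libraries brought to equal FPKM sums.

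Nfkbiz, on chromosome 16 at 55811375 to 55838954, was at 2.77 FPKM at 0 h (1.27 to 4.79), 17.0 at 4 h (12.4 to 21.7) and 4.37 at 12 h (0 to 12.9). The 4 h library was above the 0 h library with bounds apart, and the wide 12 h bounds overlapped both. The log2 fold was 2.26 between 4 h and 0 h and -1.75 between 12 h and 4 h. The isoform NM_001159395, with 629 codons, was at 13.9 FPKM at 4 h (11.1 to 16.7) and 2.38 at 0 h (1.27 to 3.48), and NM_001159394, with 728 codons and a start 16761 bases downstream, was at 3.14 (1.29 to 4.99) and 0.398 (0 to 1.22). Their shares of 81.6% and 18.4% at 4 h differed by 4.1 points from those at 0 h. At 12 h they held 51.3% and 48.7%, with bounds that both reached 0.

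Tnfaip3, which encodes the ubiquitin-editing enzyme A20 that limits NF-kappaB signalling, lies on chromosome 10 at 19000910 to 19015410. It was at 0.726 FPKM at 0 h (0.371 to 1.16), 4.96 at 4 h (2.51 to 7.42) and 0.561 at 12 h (0.254 to 0.945), or about 40, 246 and 27 fragments. The 4 h bounds lay apart from both others. The log2 fold between 4 h and 0 h was 1.79, or 2.62 with a pseudocount of 0.1 FPKM and 0.80 with a pseudocount of 5 FPKM. The isoform from the downstream start, NM_001166402, was at 0.725, 3.28 and 0.560 FPKM at 0, 4 and 12 h. The isoform from the upstream start, NM_009397, 3447 bases away, was at 0.000927, 1.68 and 0.000926 FPKM. Its bounds were 0.557 to 2.81 at 4 h and 0 to 0.0784 at 0 h. This isoform held 33.9% of the gene's level at 4 h, and its first exon of 258 bases corresponds to about 5.2 fragments there. At 0 h the whole gene was under 1 FPKM, below the floor planned for shares. A difference in share between 4 h and 0 h can therefore not be read.

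Tnfaip2, named for its induction by tumour necrosis factor, lies on chromosome 12 at 111442450 to 111455018 and was at 2.12 FPKM at 0 h (1.43 to 2.80), 2.58 at 4 h (1.82 to 3.35) and 1.38 at 12 h (0.830 to 1.93). All 3 bounds overlapped. Its log2 fold between 4 h and 0 h was 0.20 on the deposited scale and -0.01 with libraries brought to equal FPKM sums.

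In order of level, the 4 h library ran Il1r1, Nfkbia, Nfkb2, Nfkb1, Nfkbiz, Myd88, Il1rap, Relb, Tnfaip3 and Tnfaip2. The bounds of Il1r1 and Nfkbia overlapped there (70.2 to 79.2 and 55.6 to 72.5 FPKM), as did those of each later pair of neighbours except Nfkbia and Nfkb2 (13.1 to 35.0 FPKM). At 0 h the order was Nfkbia, Nfkb1, Il1r1, Myd88, Nfkb2, Il1rap, Relb, Nfkbiz, Tnfaip2 and Tnfaip3, and the 4 genes after Nfkbia lay between 10.8 and 12.3 FPKM. The bounds of Tnfaip2 and Tnfaip3 lay apart at 0 h and overlapped at 4 h.

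**Figure D3:**
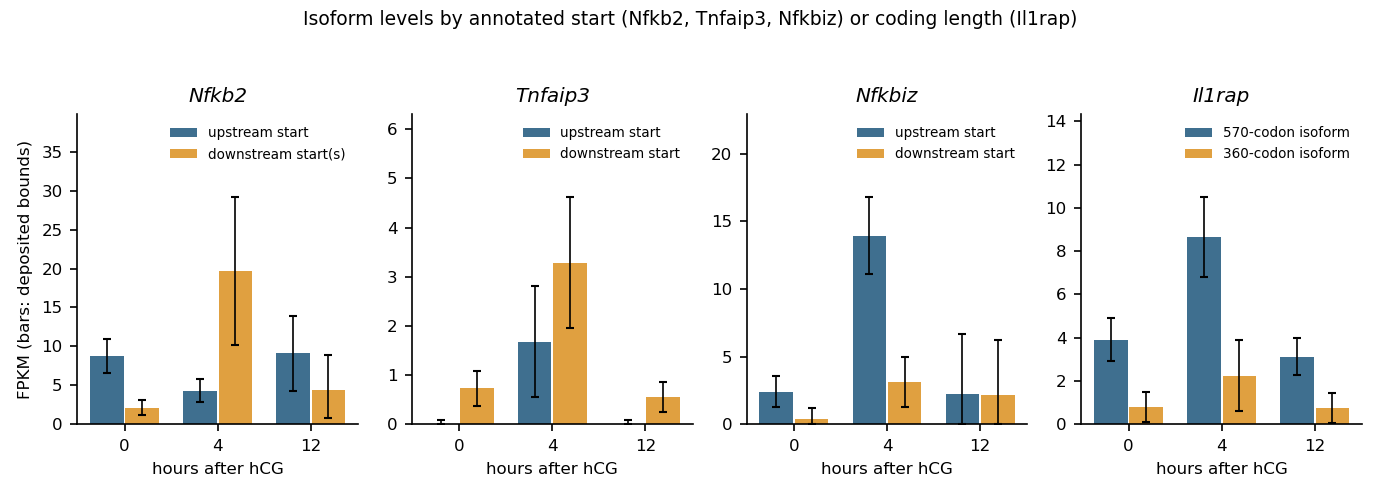
FPKM of isoforms at 0, 4 and 12 h, grouped by annotated start for Nfkb2, Tnfaip3 and Nfkbiz and by coding length for Il1rap; thin bars are the deposited bounds, summed where a start has several isoforms. In Nfkb2 the downstream start is the higher one at 4 h (19.7 against 4.29 FPKM) and the upstream start at 0 h (8.75 against 2.03 FPKM).

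Genes whose folds between 4 h and 0 h and between 12 h and 4 h lay nearest to those of a listed gene were looked for among 10050 protein-coding genes with at least 5 FPKM in a library, over 3 libraries. Nearest to Il1r1 were the glucose transporter Slc2a1 (25.1, 148 and 28.8 FPKM at 0, 4 and 12 h), Tes (47.6, 277 and 54.8) and Dok5 (0.193, 5.48 and 0.271), at distances of 0.051, 0.061 and 0.075 on the log2 scale. Nearest to Nfkbiz were Sorl1 (1.29, 9.67 and 2.13 FPKM), St6gal1 (37.7, 176 and 51.3) and Lrrc8c (8.25, 42.4 and 12.5), at 0.044, 0.066 and 0.067. Nearest to Il1rap were Rap1a, Phip and Stc1, and nearest to Nfkb2 were Mafg, Irf2bpl and Fn1. Nfkb1 stood nearest to Tmem41b, Zfp142 and Itprid2, Relb to Neto2, Nrbf2 and Cdc42ep1, Nfkbia to Sntb2 and Hdhd3, and Myd88 to Armc10, Smg9 and Myof. With 3 libraries such nearness is a description.

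The interleukin-1 ligands were low in each library. Il1a was at 0.146, 0.0465 and 0.0959 FPKM at 0, 4 and 12 h. Il1b was listed at 0 at 0 h, at 0.819 FPKM at 4 h (0.0364 to 1.60) and at 0.0756 at 12 h. The antagonist Il1rn was at 0.796 FPKM at 4 h, against 0.169 at 0 h. Of the 12 other ligands and receptors of the interleukin-1 family, 6 were tested between 4 h and 0 h. Of these, 4 were called higher and 1 lower, where 10.2% of all genes tested were called higher and 7.03% lower. The median log2 fold was 1.75, against -0.01 for all genes. The receptor for interleukin-36, Il1rl2, was at 0.515 FPKM at 0 h, 11.9 at 4 h (9.09 to 14.6) and 4.33 at 12 h (log2 fold 3.08 between 4 h and 0 h). The decoy receptor Il1r2 binds interleukin-1 without signalling. It was at 0.393 FPKM at 0 h (0 to 0.889), 3.59 at 4 h (1.99 to 5.18) and 0.227 at 12 h (0 to 0.719). Il1r1 was 20.8 times as high as Il1r2 at 4 h. The ratios of 31.3 at 0 h and 59.7 at 12 h divide by levels whose bounds reach 0, so they cannot be compared with it. The interleukin-18 binding protein Il18bp was at 2.99, 13.1 and 3.59 FPKM and Il33 at 0.483, 4.09 and 1.07. The interleukin-33 receptor Il1rl1 was called lower at 4 h, at 1.36 FPKM against 4.30 at 0 h. These counts of 4 and 1 were the same under each of the 3 other scalings.

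In the chain between receptor and nucleus, 1 gene of each of 2 lists was called higher at 4 h, where 10.2% of all genes tested were. Of 12 tested MyD88 adaptors and kinases this was the ubiquitin ligase Peli1 (43.3 FPKM at 4 h, against 18.6 at 0 h), and the median log2 fold was 0.27. With libraries brought to equal FPKM sums no gene of that list was called higher and 1 was called lower. This was Peli2, at 14.7 and 26.0 FPKM on the deposited scale. Among all genes tested with equal sums, 1000 were called higher at 4 h and 1728 lower. The median of the list with equal sums was -0.01, against -0.29 for all genes. On the deposited scale that of all genes was -0.01. The kinase Irak1 was at 33.1 FPKM at 4 h, against 27.3 at 0 h, and Traf6 at 9.45 and 6.98. Of 11 tested IkappaB kinases and upstream kinases Map3k14, the kinase of the noncanonical branch, was called higher (4.79 and 1.52 FPKM) and none lower. The median of 0.20 became -0.09 with equal sums, where that of all genes was -0.29. On that scale no kinase was called higher and Ikbke was called lower, at 3.01 and 6.87 FPKM on the deposited scale. The catalytic subunits Chuk and Ikbkb had log2 folds of 0.24 and 0.20.

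Of the 9 other subunit and IkappaB genes tested, the atypical IkappaB gene Bcl3 was called higher at 4 h (8.51 FPKM, against 2.71 at 0 h) and none lower. The median was 0.43, or 0.16 with equal sums, against -0.01 and -0.29 for all genes. Rela, the main transactivating subunit, was at 26.9 FPKM at 0 h (24.2 to 29.6), 42.2 at 4 h (38.8 to 45.6) and 28.9 at 12 h (26.1 to 31.7), a log2 fold of 0.63 between 4 h and 0 h. Rela was the most abundant of the 5 subunit genes in each library, and Rel was at 0.973, 2.53 and 1.41 FPKM. Of 11 tested partners of A20 and enzymes of linear ubiquitin, the A20-binding inhibitor Tnip2 was called higher (28.0 FPKM at 4 h, against 9.77 at 0 h). The median of these 11 was 0.23, or -0.07 with equal sums, where that of all genes was -0.29.

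In the tumour necrosis factor arm Tnf was listed at 0 at 4 h and at 0 h and at 0.0621 FPKM at 12 h. Its receptor Tnfrsf1a was the 1 gene of 11 tested that was called higher at 4 h (91.5 FPKM, 85.8 to 97.1, against 31.5 at 0 h, 26.9 to 36.2), and the median of that list was -0.12. Beside this count and those that follow, 10.2% of all genes tested were called higher at 4 h and 7.03% lower. In the noncanonical list 5 of 12 genes were tested and the TWEAK receptor Tnfrsf12a was called higher, at 531 FPKM at 4 h against 32.7 at 0 h. Of 11 Toll-like receptors and co-receptors 4 were tested: the co-receptors Ly96 (43.7 and 18.6 FPKM) and Cd14 (4.31 and 1.13) were called higher, and each of the 9 receptors was at or below 2.34 FPKM in each library. With equal sums Cd14 alone remained called.

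Of 31 genes known as NF-kappaB targets, 24 were tested, 11 were called higher at 4 h, 2 lower and 11 neither. Over all genes tested, 10.2% were called higher and 7.03% lower. The median log2 fold of the targets was 0.84, against -0.01 for all genes. With equal sums 9 of these targets were called higher and 2 lower (median 0.55, against -0.29 for all genes). Over all genes tested on that scale, 1000 were called higher and 1728 lower. The prostaglandin synthase Ptgs2 was at 1.76, 581 and 6.32 FPKM at 0, 4 and 12 h, Ier3 at 20.3, 297 and 102, and the plasminogen activator Plau at 78.7, 1105 and 200. All 3 are also targets of other pathways. The cytokine Il6 was listed at 0 at 0 h and was at 4.07 and 1.64 FPKM at 4 and 12 h. The adhesion molecule Icam1 was at 5.84 FPKM at 4 h, against 0.483 at 0 h, and Ccl5 (0.512 and 3.42) and Bcl2l1 (17.3 and 42.7) were called lower. The manganese superoxide dismutase Sod2 had a log2 fold of 0.37, and the chemokine gene Ccl20 and the colony-stimulating factor gene Csf2 were listed at 0 in each library. Of 5 other tested genes named for induction by tumour necrosis factor, Tnfaip6, which encodes a hyaluronan-binding protein of the expanding cumulus matrix, was called higher and none lower (median 0.54). Its level was 1.40, 1251 and 7.01 FPKM at 0, 4 and 12 h.

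**Figure D4:**
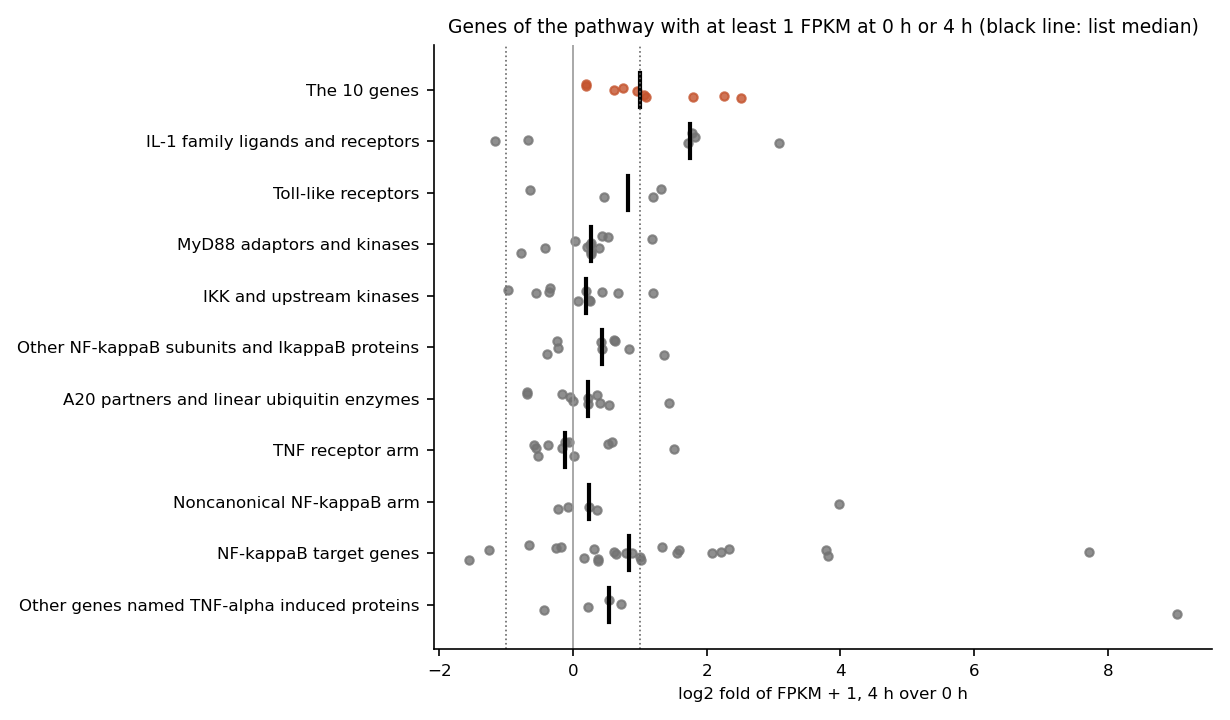
Log2 fold of FPKM + 1 between 4 h and 0 h for genes that reached 1 FPKM in either library, by list, with the 10 genes at the top in orange; black lines are list medians and dotted lines mark 2-fold. The medians run from -0.12 in the tumour necrosis factor arm to 1.75 in the interleukin-1 family.

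Several of these genes are also expressed by cells other than granulosa cells, and markers of such cells differed between the libraries. Among all genes tested, 10.2% were called higher at 4 h than at 0 h and 7.03% lower. Endothelial markers had a summed level of 27.6 FPKM at 0 h, 44.1 at 4 h and 21.7 at 12 h; none was at 0, and 1 of 7 tested was called higher at 4 h (Kdr, 7.92 and 1.54 FPKM). Surface epithelium markers summed to 58.3 FPKM at 0 h, 143 at 4 h and 85.6 at 12 h, with 4 of 7 called higher at 4 h, or 2 with equal sums. Neutrophil markers summed to 2.38 FPKM at 0 h, 25 at 4 h and 4.47 at 12 h, with 3 of 4 tested called higher at 4 h. S100a8 was at 1.59, 10.2 and 0.463 FPKM at 0, 4 and 12 h, S100a9 was listed at 0 at 0 h and was at 10.8 and 0.266 FPKM at 4 and 12 h, Camp was listed at 0 at 0 h and was at 2.32 and 2.82 FPKM, and Elane was listed at 0 in each library. Leukocyte markers summed to 60.2, 97.9 and 109 FPKM at 0, 4 and 12 h with 2 of 6 tested called higher at 4 h. These were Cd68, at 5.39, 22.7 and 12.5 FPKM, and Cd52, at 4.01, 11.2 and 17.5 FPKM, while the pan-leukocyte gene Ptprc was at 0.489, 0.489 and 0.521 FPKM. Of the granulosa markers 4 of 7 (Foxl2, Fshr, Cyp19a1 and Gata4) were called lower at 4 h than at 0 h and higher at 12 h than at 4 h. Among all genes tested between 12 h and 4 h, 4.83% were called higher. The part of other cells in the levels of the 10 genes was not tested, and in RNA of mixed cells fewer cells of a type and less RNA per cell cannot be told apart.

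Theca and stroma markers summed to 287 FPKM at 0 h, 321 at 4 h and 288 at 12 h, with 0 of 7 called at 4 h. Smooth muscle markers summed to 126 FPKM at 0 h, 191 at 4 h and 187 at 12 h, and 1 of 6 was called higher at 4 h, or none with equal sums. Oocyte markers summed to 172 FPKM at 0 h, 141 at 4 h and 244 at 12 h, with none of 7 tested called at 4 h.

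**Figure D5:**
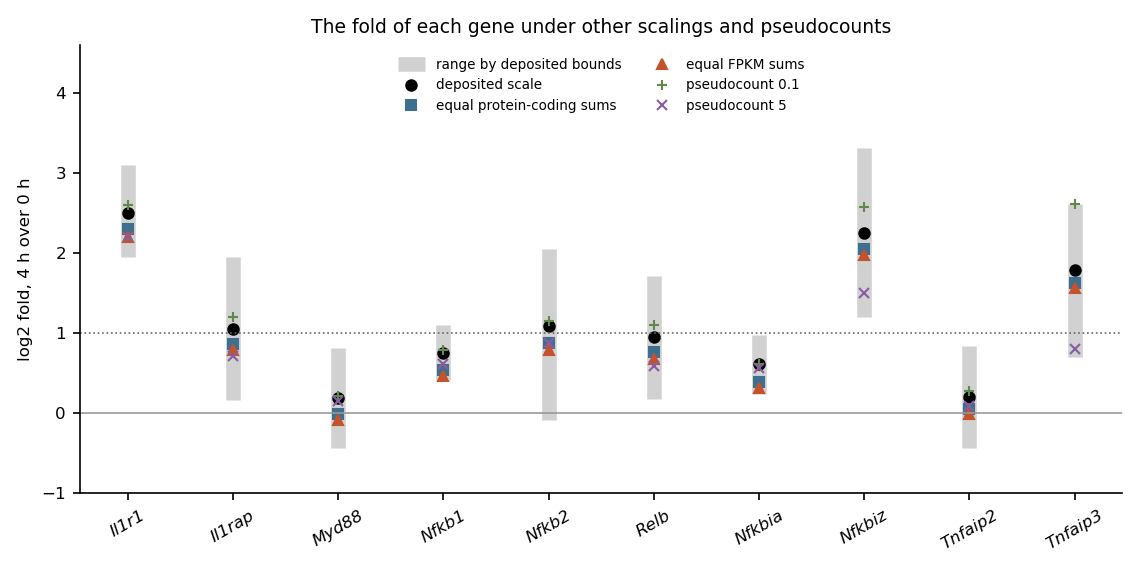
Log2 fold between 4 h and 0 h of the 10 genes on the deposited scale (black points), with libraries brought to equal protein-coding or equal total FPKM sums, and with pseudocounts of 0.1 and 5 FPKM; grey bars span the folds that the deposited bounds allow and the dotted line marks 2-fold. Il1r1 and Nfkbiz stay above 1 under all 5 settings shown, Tnfaip3 under 4 of them, and Il1rap and Nfkb2 under 2.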

How the data were processed

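Granulosa cell mRNA-seq libraries, 1 per time, were made with an Illumina kit from column-purified total RNA, per the labels' protocols. The values used are the deposited FPKM of 34535 RefSeq isoforms with a lower and an upper bound; per the file headers these are fpkm, conf_lo and conf_hi, and the level of the bounds is not stated. The deposited stdev column is a score equal to the distance from the estimate to the upper bound divided by 2, and was checked against the bounds only. The submitters' processing notes list CASAVA 1.8, TopHat2 2.1.1, Cufflinks 2.2.1 and mm10 with no role or order. Strand, read length and pooling are not given in the sources used here.

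Accessions were matched to GRCm38.p6 gene symbols (34169 isoforms) or through GENCODE M21 (193); 173 were left out. Isoform values and bounds were summed to 24225 genes, which makes bounds wide where a gene has several isoforms. No estimate of the 10 genes was marked as failed. Exon counts, codons and starts are those of the GENCODE transcripts paired with each accession. Depth was read from the spacing of FPKM below 10 fragments in single-isoform transcripts over 1000 nt: 70.8%, 70.1% and 71.7% of values lay within 0.1 of a whole number at 0, 4 and 12 h, where spacing alone gives 20%. Fragment numbers are estimates from that depth and cover counting error only. Python 3.11.15, pandas 2.3.3 and NumPy 2.4.6 were used.

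The 10 genes, the pathway and marker lists and the rules were chosen with earlier results of these data known. Named beside the 10 genes are the 3 nearest in fold (1 of those nearest to Nfkbia is not reported here) and up to 4 per list with the largest fold, with at least 1 per called direction; Il1a, Il1b, Il1rn, Irak1, Traf6, Chuk, Ikbkb, Rela, Rel, Tnf, Icam1, Bcl2l1, Sod2, Ccl20, Csf2, Psd and the markers named were chosen after their values were seen. Alternatives were other pseudocounts, filters, scalings and folds, bounds that lie apart, and a gene's main isoform instead of its summed isoforms; list counts under other scalings were added after seeing the data.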

Additional observations from a re-analysis of the deposited data

How the results depend on the processing

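The count of 5 genes called higher at 4 h than at 0 h was 2 with a pseudocount of 5 FPKM (Il1r1 and Nfkbiz, where 5.90% of all genes were called higher), 3 with libraries brought to equal FPKM sums (7.6%) or to equal protein-coding sums (8.18%), 8 at a fold of at least 1.5 (19.1%), 2 at a fold of at least 4 (3.56%), and 3 with a gene's main isoform instead of its summed isoforms (11.6%). Under the other 5 alternatives it was 4 to 6. The count of 4 called lower at 12 h than at 4 h was 2 with a pseudocount of 5 FPKM (4.67% of all genes called lower), 7 at a fold of at least 1.5 (16.0%) and 1 at a fold of at least 4 (2.55%), and 3 or 4 under the others. The counts of 0 (lower at 4 h than at 0 h, higher at 12 h than at 4 h, and either way between 12 h and 0 h) were 0 under all 11 alternatives. Genes with bounds apart numbered 7 between 4 h and 0 h and 5 between 12 h and 4 h, or 8 and 6 with bounds combined as the root of summed squares, and 0 between 12 h and 0 h either way. Of 180 folds of single genes, 174 stayed within the range that the deposited bounds allow, 5 moved outside it and 1 fold of a called gene changed sign. The log2 fold of Nfkb2 between 4 h and 0 h became -0.88 with its main isoform alone, the isoform of the upstream start. The library sums differ (501561 FPKM at 0 h, 621365 at 4 h and 472904 at 12 h), and which scale is closer to the RNA content of the cells was not tested. Depth limits Tnfaip3 and Tnfaip2 most, with 27 to 246 and 57 to 110 fragments per library. No paired analysis was possible because each time has 1 library.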
